A study of Mus musculus with 4 samples.

Results

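A set of 6 mouse genes is described here across 4 RNA sequencing libraries: the 4 lymphocyte antigen 6 genes Ly6a, Ly6e, Ly6c1 and Ly6c2, together with Igfbp4 and Dapl1. All 6 were found by symbol among the 16338 rows of each library's table. They were put together because earlier results of the same data showed them at a higher level in cells with the TRP1high receptor, so that difference is a description of how they were chosen and supports nothing. The label held for 5 of the 6 genes with both peptides, and Ly6e was higher in TRP1high with the M9 peptide and not with K8.

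The libraries came from T cells with 1 of 2 T cell receptors, named TRP1high and TRP1low, and each T cell population had spent 48 h with stimulating B cells that presented either the K8 or the M9 peptide. The antigen TRP1 (tyrosinase-related protein 1) is made by pigment cells and by melanoma, and the series concerns how changed binding of antigenic peptides to MHC class I bears on CD8 T cells. The 4 groups, written TRP1high/K8, TRP1high/M9, TRP1low/K8 and TRP1low/M9, were all T cells sorted out of the co-culture. The sources used here do not give the strain, the age or the origin of the T cells. Each group held 1 library, so the variation between cultures is unknown, and no p-value is given.

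Ly6 proteins are small, cysteine-rich proteins held on the outer cell membrane by a glycosylphosphatidylinositol (GPI) anchor. Ly6a encodes Sca-1, a marker of blood stem cells that activated T cells also carry, and Ly6e encodes TSA-1 (Sca-2), known from immature thymocytes. Ly6c1 and Ly6c2 encode the Ly-6C antigen of monocytes, plasma cells and subsets of CD8 T cells. Several Ly6 genes are known to respond to interferons. Igfbp4 encodes a secreted protein that binds insulin-like growth factors and is known as a transcript of resting T cells, and Dapl1 encodes a relative of the death-associated protein DAP1.

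Values are log2 normalized counts with 1 added, as deposited. The spacing of the lowest values gave the worth of 1 read in each library, and with it depths of 29.6 M estimated reads in TRP1low/K8 and 40.3 M to 41.5 M in the other libraries. The T cell label was met: Cd3e stood at 11.92 to 13.35 and Cd8a at 14.33 to 15.14, and all 12 CD8 T cell markers were above 0 in every library. The B cell markers were present at lower levels, with summed normalized counts over 18 genes of 2325 in TRP1high/K8, 367 in TRP1high/M9, 2189 in TRP1low/K8 and 598 in TRP1low/M9. Pax5, Cr2 and Fcrla were among the markers at 0 in TRP1high/M9, and Cr2 also in TRP1low/M9. TRP1low/K8 stood apart in haemoglobin transcript, with Hba-a1 at 6.93 against 1.19 to 2.82 elsewhere, and its 12 measured myeloid or dendritic markers summed to 505 normalized counts against 164 to 382. Of 7 measured plasma cell genes, 3 were at least 2-fold lower with M9 and 0 higher in TRP1high (4.73% and 5.14% of all tested genes), and 2 were lower and 2 higher in TRP1low (7.43% and 7.67%). Jchain and Mzb1 were the 2 lower with M9 in both receptors (1.57% of tested genes). Jchain stood at 4.99 (TRP1high/K8), 2.61 (TRP1high/M9), 5.64 (TRP1low/K8) and 1.06 (TRP1low/M9). Xbp1 and Irf4, which activated T cells also express, were the 2 higher in TRP1low. Between the receptors, 8 of 18 B cell markers were higher in TRP1high and 2 lower with K8 (10.6% and 8.35% of tested genes), and 2 were higher and 11 lower with M9 (7.37% and 5.58%). Tcrg-C1, a gamma delta T cell receptor constant gene, was 1 of 5 measured gamma delta T or NK cell markers. It was the only one of them at least 2-fold higher in TRP1high with both peptides (3.24% of tested genes). Its levels were 9.83 and 6.73 against 3.40 and 1.63 in TRP1low (K8 and M9). Trdc, the delta chain constant gene, stood at 9.40 and 8.86 against 10.20 and 9.64. The 4 CD4 T cell markers went both ways. With K8, 2 were at least 2-fold higher in TRP1high and 2 lower (10.6% and 8.35% of tested genes). With M9, 0 were higher and 1 lower (7.37% and 5.58%). Cd4 was the only one lower with both (2.29% of tested genes), at 1.64 and 0 against 4.73 and 4.27. In a bulk library fewer cells of a type and less RNA per cell cannot be told apart, and the part of these other cells in the levels of the 6 genes was not tested.

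**Figure D1:**
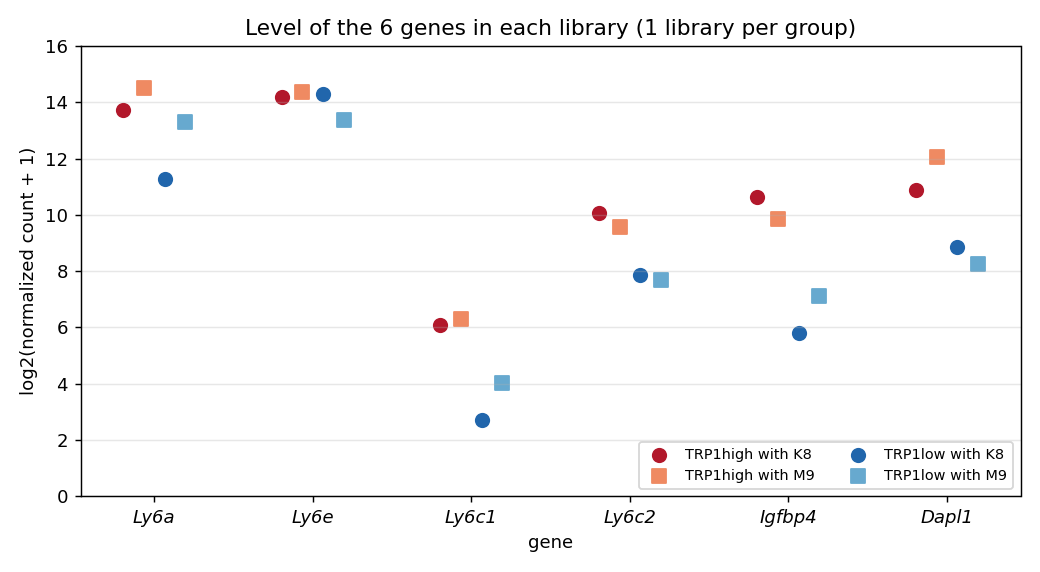
Levels of the 6 genes as log2(normalized count + 1) on the vertical axis, with 1 point per library (circles for K8, squares for M9, red shades for TRP1high, blue shades for TRP1low). The points of Ly6a, Ly6c1, Ly6c2, Igfbp4 and Dapl1 are higher in both TRP1high libraries than in either TRP1low library, while the points of Ly6e lie between 13.38 and 14.38. The genes were chosen for a higher level in TRP1high, and the share of all genes with this order was not counted.

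The 4 Ly6 genes lie within 157 kb of mouse chromosome 15 (GRCm38, GENCODE M21). Ly6e (ENSMUSG00000022587.14) spans 74955051 to 74959905 on the plus strand. On the minus strand follow Ly6a (ENSMUSG00000075602.10, 74994877 to 74998031), Ly6c1 (ENSMUSG00000079018.10, 75044018 to 75048830) and Ly6c2 (ENSMUSG00000022584.14, 75108158 to 75111970). Igfbp4 (ENSMUSG00000017493.12) is on chromosome 11, from 99041244 to 99054392, and Dapl1 (ENSMUSG00000026989.5) on chromosome 2, from 59484653 to 59505020, both on the plus strand. All 6 are annotated as protein-coding, and the longest coding transcript of each has 4 exons. The shared chromosome of the Ly6 genes was not used to choose Igfbp4 and Dapl1.

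Ly6a, which encodes Sca-1, stood at 13.74 in TRP1high/K8, 14.52 in TRP1high/M9, 11.26 in TRP1low/K8 and 13.29 in TRP1low/M9. The TRP1low library with K8 was the low one, and the other libraries lay within a narrower band. In normalized counts these levels were 13651, 23513, 2457 and 10042. The ratio of TRP1high to TRP1low was 5.56 with K8 and 2.34 with M9. The exact 95% intervals by Clopper and Pearson, computed from estimated reads, were 5.29 to 5.84 and 2.29 to 2.40; they hold counting error alone, as no molecular identifiers mark the reads. With M9, Ly6a was higher than with K8 in both receptors, 1.72-fold in TRP1high (1.69 to 1.76) and 4.09-fold in TRP1low (3.89 to 4.30).

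Ly6e, which encodes TSA-1, was the most even of the 6 genes, with a range of 1.0 over the libraries on the log2 scale. It stood at 14.20 in TRP1high/K8, 14.38 in TRP1high/M9, 14.30 in TRP1low/K8 and 13.38 in TRP1low/M9. Here TRP1low/M9 was the low library, in contrast to Ly6a, Ly6c1 and Igfbp4, whose lowest level was in TRP1low/K8. With K8 the TRP1high library was slightly lower than TRP1low, by 1.07-fold (1.05 to 1.09). With M9 it was 2.0-fold higher (1.96 to 2.05), a log2 difference of 1.0 that lies at the 2-fold limit used for counts. Ly6e was 1.13-fold higher with M9 in TRP1high (1.11 to 1.15) and 1.9-fold lower with M9 in TRP1low (1.85 to 1.94).

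Ly6c2, the more abundant of the Ly-6C genes, stood at 10.05 in TRP1high/K8, 9.58 in TRP1high/M9, 7.86 in TRP1low/K8 and 7.69 in TRP1low/M9. Both TRP1high libraries were above both TRP1low libraries, the contrast on which the gene was chosen, and within a receptor the peptides were close. The receptor ratio was 4.58 with K8 (3.89 to 5.43) and 3.71 with M9 (3.17 to 4.36), and the difference between these on the log2 scale was -0.30, the smallest of the 6 genes. With M9, Ly6c2 was 1.39-fold lower in TRP1high (1.26 to 1.53). In TRP1low it was 1.13-fold lower with M9, and the counting interval of 0.910 to 1.39 includes no difference.

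Ly6c1 had the same order of receptors at far lower levels. It stood at 6.08 in TRP1high/K8, 6.30 in TRP1high/M9, 2.72 in TRP1low/K8 and 4.04 in TRP1low/M9. These levels came from 67, 78.8, 4.1 and 14.8 estimated reads, so the ratios are loose. The receptor ratio was 12.0 with K8 (4.56 to 46.2) and 5.03 with M9 (2.84 to 9.29). The peptide ratio of M9 to K8 was 1.17 in TRP1high (0.834 to 1.64) and 2.78 in TRP1low (0.916 to 11.9), and both intervals include 1.

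Ly6c1 and Ly6c2 share most of their sequence, so reads between them could be split wrongly. Their longest coding transcripts (844 and 822 bases, GENCODE M21) were identical at 802 of 822 aligned bases, 97.6%, against 86.2% between Ly6a and Ly6c1 and 75.9% between Ly6e and Ly6c1. Of the 31-base words in the Ly6c1 transcript, 47.9% also occurred in Ly6c2. Taken as 1 quantity, Ly6c1 plus Ly6c2 stood at 10.14, 9.72, 7.90 and 7.80 in TRP1high/K8, TRP1high/M9, TRP1low/K8 and TRP1low/M9. The summed receptor difference was 2.24 with K8 and 1.92 with M9 on the log2 scale, and between 2.35% and 9.27% of the sum was assigned to Ly6c1. This sum does not depend on how reads were split between Ly6c1 and Ly6c2, while the level of Ly6c1 alone does. It is not guarded against reads of Ly6a, which was more abundant in every library. Ly6a was 84.7% identical to Ly6c2, and 5.08% of its 31-base words also occurred there. The part of such reads in the sum was not tested.

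The sequences just before the start of these near-identical genes were less alike than the transcripts. The windows shown hold 250 bases up to the RefSeq start on GRCm38.p6, both on the minus strand, chr15:75048838-75049087 for Ly6c1 and chr15:75111972-75112221 for Ly6c2, and capitals mark each stretch of at least 15 bases found in both.
Ly6c1: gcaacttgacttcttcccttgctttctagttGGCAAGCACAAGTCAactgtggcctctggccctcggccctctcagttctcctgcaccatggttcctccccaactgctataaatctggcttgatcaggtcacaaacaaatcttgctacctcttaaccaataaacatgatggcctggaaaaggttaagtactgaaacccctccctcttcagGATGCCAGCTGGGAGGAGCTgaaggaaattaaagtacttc
Ly6c2: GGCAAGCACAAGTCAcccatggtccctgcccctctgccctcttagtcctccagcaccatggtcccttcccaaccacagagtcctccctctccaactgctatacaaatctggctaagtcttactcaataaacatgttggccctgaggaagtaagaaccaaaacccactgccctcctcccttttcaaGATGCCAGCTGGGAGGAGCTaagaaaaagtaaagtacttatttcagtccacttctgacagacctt
Aligned end to end, the windows were identical at 164 of 216 aligned bases, 75.9%. The capitals cover 2 stretches, the longer of 20 bases.

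The RefSeq promoter table matched 4 of the 6 genes (Ly6c1, Ly6c2, Igfbp4 and Dapl1), and Ly6a and Ly6e were not among them. In the 250 bases before their starts, 3 motifs were searched on both strands: the core of the interferon-stimulated response element (GAAA and GAAA with any 2 bases between), the gamma-activated site bound by STAT proteins (TTCNNNGAA) and a TCF/LEF site (CTTTGA), where N is any base. The 3 motifs had 0 matches in each of the 4 windows. Of 32851 windows of this length in the table, 2.98%, 7.02% and 13.8% held a match. A window without a match says only that these letters are not in it. The base composition of the windows differed, with 69.2% G and C before Igfbp4 and 48.4% before Ly6c1.

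Igfbp4 had the widest range of the 6 genes, 4.82 on the log2 scale. It stood at 10.63 in TRP1high/K8, 9.84 in TRP1high/M9, 5.81 in TRP1low/K8 and 7.10 in TRP1low/M9. The lowest level, in TRP1low/K8, came from 40.3 estimated reads. The receptor ratio was 28.8 with K8 (21.2 to 40.8) and 6.71 with M9 (5.59 to 8.15). The peptides went opposite ways in the receptors, with Igfbp4 1.73-fold lower with M9 in TRP1high (1.6 to 1.88) and 2.48-fold higher with M9 in TRP1low (1.74 to 3.65).

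Dapl1 stood at 10.87 in TRP1high/K8, 12.04 in TRP1high/M9, 8.87 in TRP1low/K8 and 8.25 in TRP1low/M9. TRP1high/M9 was the high library and TRP1low/M9 the low one. The receptor ratio was 4.01 with K8 (3.57 to 4.51) and 13.8 with M9 (12.3 to 15.6), so that Dapl1 had the larger ratio with M9 and Igfbp4 the larger with K8. With M9, Dapl1 was 2.24-fold higher in TRP1high (2.12 to 2.37) and 1.54-fold lower in TRP1low (1.31 to 1.80).

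**Figure D2:**
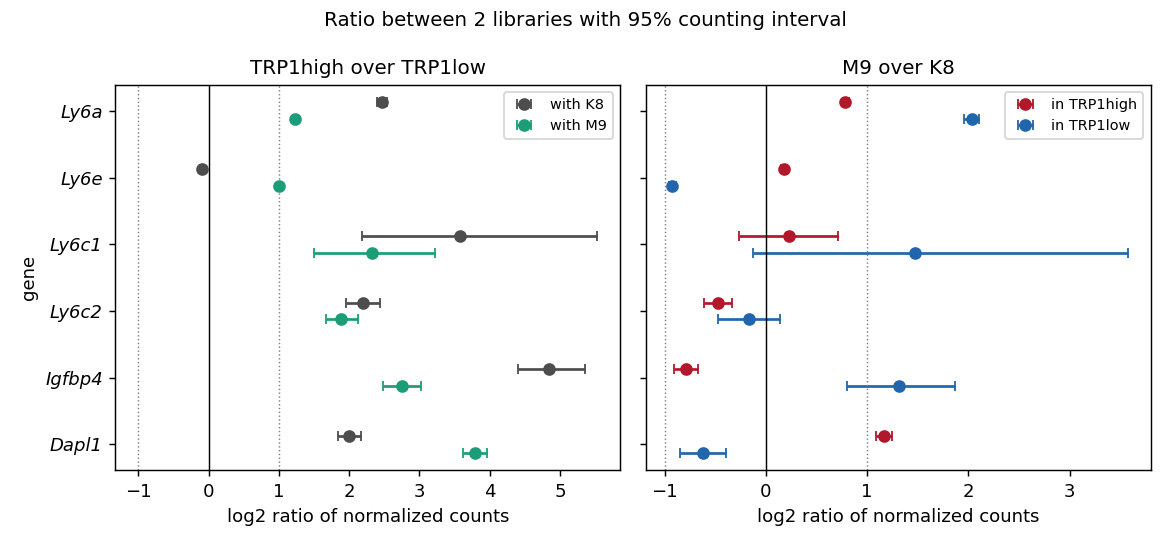
Ratios of normalized counts between 2 libraries on a log2 axis, with bars for 95% exact counting intervals, for TRP1high over TRP1low (left) and M9 over K8 (right); dotted lines mark 2-fold. Ly6a, Ly6c1, Ly6c2, Igfbp4 and Dapl1 are to the right of the 2-fold line with both peptides at left, and at right Igfbp4 and Dapl1 lie on opposite sides of 0 in the 2 receptors.

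Levels of different genes can be compared only per length, here as normalized counts per kb of the longest coding transcript. In TRP1high/K8 the order was Ly6a (14294), Ly6e (8269), Dapl1 (3275), Ly6c2 (1290), Igfbp4 (415) and Ly6c1 (79.2). TRP1high/M9 had the same order, led by Ly6a at 24620 and Ly6e at 9333 per kb. In TRP1low/K8, Ly6e led at 8838 and Ly6a followed at 2573. With M9 in TRP1low, Ly6a was again first at 10515, ahead of Ly6e at 4662. Dapl1, Ly6c2, Igfbp4 and Ly6c1 kept the third to the last places in every library, and the lowest value of Igfbp4 was 14.4 per kb in TRP1low/K8. Whether neighbours in this order differ beyond the spread between cultures was not measured.

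Counted at 2-fold, with 10 or more normalized counts in 1 of the libraries compared, 5 of the 6 genes were higher in TRP1high with K8 and 6 of 6 with M9. The same call took in 10.6% of 16102 tested genes with K8 and 7.37% with M9, and 3.24% with both. Nothing is read from these counts, because the genes were chosen on this contrast. The median log2 difference of the 6 genes was 2.33 with K8 and 2.07 with M9, beside 0.00 and -0.03 over all tested genes.

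The receptor difference itself changed with the peptide by at least 2-fold for 5 of the 6 genes, against 18.7% of tested genes, and in no common direction. It was smaller with M9 for Ly6a (by 1.25 on the log2 scale), Ly6c1 (by 1.11) and Igfbp4 (by 2.09), and larger with M9 for Ly6e (by 1.10) and Dapl1 (by 1.78). These values come from the same contrast that chose the genes and rest on 1 library per group. For Ly6c1, with 4.1 estimated reads in TRP1low/K8, the intervals of the receptor ratio with K8 (4.56 to 46.2) and M9 (2.84 to 9.29) overlap.

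The genes were not chosen on the peptide, but the peptide contrasts use the same libraries as the receptor contrast that chose them. A low level in TRP1low/K8 raises both the receptor difference with K8 and the peptide difference in TRP1low. The peptide counts and medians are therefore not free of the choice and are given as a description. Between M9 and K8, 1 of 6 genes was at least 2-fold apart in TRP1high (Dapl1), against 9.87% of tested genes. In TRP1low 3 of 6 were (Ly6a, Ly6c1 and Igfbp4, all higher with M9), against 15.1%, and 7.67% for the higher direction alone. Without Ly6c1, whose interval includes 1, the genes past 2-fold in TRP1low were Ly6a and Igfbp4. The medians of the 6 genes were 0.20 in TRP1high and 0.56 in TRP1low, beside -0.02 and 0.02 over all tested genes. Ly6e, Igfbp4 and Dapl1, 3 of 6, had peptide differences of opposite sign in the receptors, which 39.5% of tested genes had too. The peptide difference in TRP1low rests on the K8 library that stood apart in haemoglobin and myeloid transcript, and no second TRP1low library with K8 was there to replace it. Every receptor ratio with K8, and the change of the receptor difference with the peptide, rests on that library too. It also had the fewest estimated reads, 29.6 M.

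By pattern over the 4 libraries, the closest genes within the set were Ly6a and Ly6c1, whose centred log2 values had a root mean square difference of 0.58. Ly6c1 and Igfbp4 (0.60) and Ly6c1 and Ly6c2 (0.70) followed. Each of these pairs includes Ly6c1, which had 4.1 estimated reads in TRP1low/K8 and whose level depends on how reads were split from Ly6c2. Ly6e and Igfbp4 were the farthest apart at 1.87. Among 10045 genes whose mean reached 100 normalized counts, the nearest to Ly6a were Klc3 (0.07), Anxa2 and Eea1 (both 0.12). Mid1 (0.06), Cbx7 and Crtc3 (both 0.08) were nearest to Ly6e. For Ly6c1 these were Map7d1 (0.13), Mki67 (0.15) and Plac8 (0.16), and for Ly6c2 Ccdc88c (0.11), Rapgef2 (0.13) and Akna (0.15). The patterns of Igfbp4 and Dapl1 had less close neighbours, Lrrc32 (0.30), Myh9 (0.33) and Tlr7 (0.43) for Igfbp4, and Rab6b (0.24), Mt2 (0.34) and Cmpk2 (0.45) for Dapl1. With 4 points per gene, close matches are easily found among so many genes.

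Other genes of the Ly6 and urokinase receptor family, which share the protein fold, did not follow one direction. Of 41 listed family genes 16 had a row, and 10 besides the chosen ones had at least 10 normalized counts in some library. With K8, 1 of these 10 was at least 2-fold higher in TRP1high and 2 were lower (10.6% and 8.35% of tested genes). With M9, 2 were higher and 2 lower (7.37% and 5.58%), and the median difference of the 10 was -0.18 with K8 and -0.06 with M9.

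Ly6k, a family member known from germ cells, was the one lower in TRP1high with both peptides (2.29% of tested genes). Its levels were 7.10 (TRP1high/K8), 7.39 (TRP1high/M9), 9.06 (TRP1low/K8) and 8.90 (TRP1low/M9), which is 3.19-fold to 4.75-fold lower with K8 by counting interval and 2.39-fold to 3.43-fold lower with M9. Lynx1, a modulator of nicotinic receptors, stood at 6.76 in TRP1high/M9 and at 4.42 to 4.81 in the other libraries. Cd59b, an inhibitor of complement, stood at 10.49 and 10.45 in TRP1high and at 9.45 and 10.02 in TRP1low, 2.05-fold higher in TRP1high with K8 (1.85 to 2.27) and 1.35-fold with M9 (1.24 to 1.47).

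Ly6d, a gene of B cell precursors and B cells, had levels of 5.64 in TRP1high/K8, 0 in TRP1high/M9, 5.90 in TRP1low/K8 and 4.23 in TRP1low/M9. Against a floor of 3 reads, its level in TRP1high/M9 was at least 16.5-fold lower than in TRP1high/K8. The B cell markers were lower with M9 too, 16 of 18 at least 2-fold in TRP1high and 9 of 18 in TRP1low (4.73% and 7.43% of tested genes), and their part in the Ly6d level was not tested. Ly6i, a close relative of Ly6a and Ly6c, was at few reads. Its levels with K8 and M9 were 3.08 and 4.74 in TRP1high and 2.63 and 3.67 in TRP1low. Lypd6b stood at 7.73 in TRP1low/K8 and at 4.43 to 5.38 elsewhere. Plaur, the urokinase receptor, was near level at 9.59 to 10.14. Ly6g5b lay between 2.88 and 4.69, Lypd1 between 2.99 and 4.08 and 2010109I03Rik between 3.10 and 4.56.

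**Figure D3:**
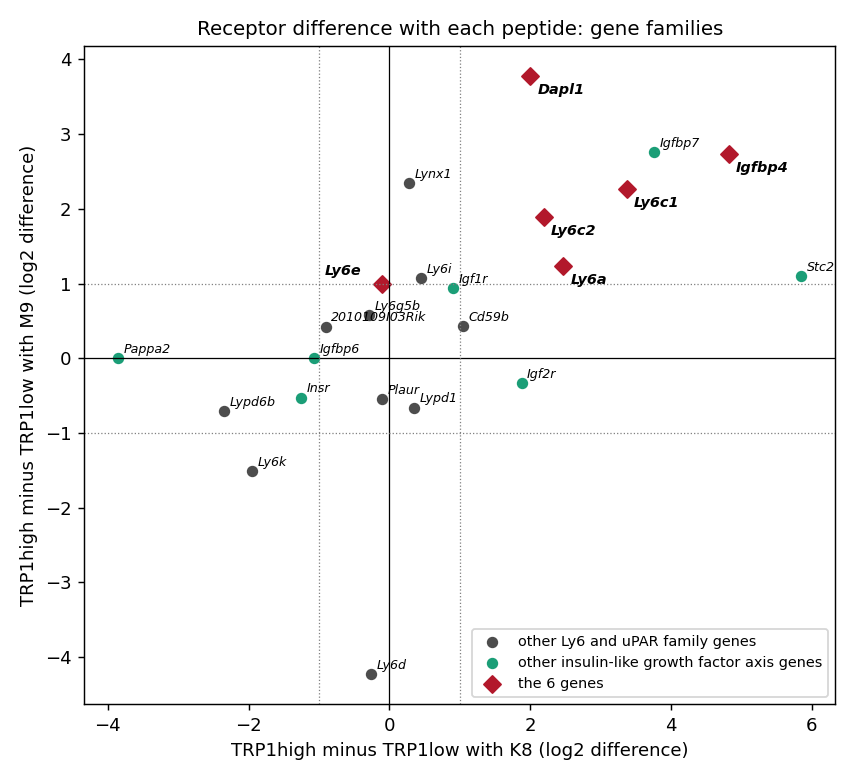
Log2 difference between TRP1high and TRP1low, with K8 (horizontal) and with M9 (vertical). Shown are the 6 genes (red diamonds), other Ly6 and urokinase receptor family genes (grey) and other insulin-like growth factor axis genes (green). The other genes had at least 10 normalized counts in some library, and dotted lines mark 2-fold. Ly6k lies at the lower left, at -1.95 and -1.51, and Igfbp7 near Igfbp4 at the upper right.

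The measured neighbours of the Ly6 genes went either way between the receptors. From 250 kb before Ly6e to 250 kb after Ly6c2 (chromosome 15, 74705051 to 75361970), 11 annotated genes had a row, 7 of them besides the 4 Ly6 genes described. With K8, 0 of these 7 were at least 2-fold higher in TRP1high and 1 was lower (10.6% and 8.35% of tested genes). With M9, 2 were higher and 2 lower (7.37% and 5.58%). None of the 7 was higher with both peptides (3.24% of tested genes), and 1, Ly6k, was lower with both (2.29%). With only 7 genes, a count of 0 cannot be told from a share of 3.24%. The neighbours past 2-fold between receptors were Ly6k, Ly6d, Lynx1 and Ly6i, which were already counted among the family genes above. Them6, a gene at the far end of the window, stood at 10.70 to 11.49 in all libraries.

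Among genes of the insulin-like growth factor axis, 11 of 17 had a row. Of the 7 besides Igfbp4 with at least 10 normalized counts in some library, 3 passed 2-fold upward and 3 downward in TRP1high relative to TRP1low with K8, and 2 upward and 0 downward with M9 (10.6% and 8.35% of tested genes with K8, 7.37% and 5.58% with M9). Igfbp7, a secreted relative of Igfbp4, stood at 5.0 in TRP1high/K8, 9.34 in TRP1high/M9, 1.25 in TRP1low/K8 and 6.58 in TRP1low/M9. Its receptor ratio was 6.82 with M9 (5.48 to 8.62) and 22.6 with K8, where 1 read in TRP1low left an interval of 3.77 to 922. Unlike Igfbp4, it was higher with M9 in both receptors.

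Stc2, a stanniocalcin that restrains cleavage of the binding proteins, stood at 7.68, 6.17, 1.82 and 5.07 in TRP1high/K8, TRP1high/M9, TRP1low/K8 and TRP1low/M9. It was 2.18-fold higher in TRP1high with M9 (1.42 to 3.45) and 80.1-fold higher with K8 (20.3 to 619, on 2 reads in TRP1low). The order of its libraries was that of Igfbp4. Igf1r, the type 1 receptor, was 4.06-fold and 3.96-fold higher with M9 in TRP1high and TRP1low, and 1.88-fold and 1.92-fold higher in TRP1high with K8 and M9. Igf2r, which takes up and degrades growth factor, was low in TRP1low/K8 (9.81) and at 11.29 to 11.69 elsewhere. Insr, the insulin receptor, was lower in TRP1high, at a ratio of 0.421 to TRP1low with K8 (0.368 to 0.480) and of 0.692 with M9 (0.596 to 0.801). Igfbp6 and Pappa2, which with Insr were the genes counted downward with K8, had at most 10 reads in any library. The interval of the Igfbp6 ratio with K8, 0.131 to 1.33, includes 1.

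For most genes that build and attach the GPI anchor of Ly6 proteins, the receptors were less than 2-fold apart. Of 28 measured genes, 1 passed 2-fold upward and 1 downward in TRP1high relative to TRP1low with K8, and the same 2 genes did with M9, with medians of -0.20 and -0.18. Over all tested genes the shares were 10.6% upward and 8.35% downward with K8, 7.37% and 5.58% with M9, and 3.24% and 2.29% with both. The lower gene was Pgap1, which remodels the anchor lipid (-1.55 and -1.01). The higher one was Gpld1, a phospholipase that cleaves GPI anchors, which stood at 4.13 and 3.74 in TRP1high, at 0 in TRP1low/K8 and at 0.71 in TRP1low/M9. Between peptides, 0 of 28 passed 2-fold in TRP1high, against 9.87% of tested genes. In TRP1low only Pgap1 did, at -1.14, against 15.1%.

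Interferon-stimulated genes, a group that several Ly6 genes are known to belong to, were higher in TRP1high for many members. With K8, 16 of 32 were at least 2-fold higher and 5 lower, and with M9 24 of 32 were higher and 0 lower, beside 10.6% and 8.35% of tested genes with K8 and 7.37% and 5.58% with M9. Medians were 1.01 and 2.01. With both peptides 15 of 32 were higher, beside 3.24% of tested genes. The largest mean differences among these were in Mx2, Cmpk2, Mx1 and Ifi27l2a. Mx2, an antiviral GTPase, stood at 4.05 in TRP1high/K8, 6.83 in TRP1high/M9, 0 in TRP1low/K8 and 3.18 in TRP1low/M9. Its relative Mx1 stood at 5.40, 5.87, 3.36 and 2.02 in the libraries in the same order. Cmpk2, a mitochondrial nucleotide kinase and 1 of the genes nearest to Dapl1 in pattern, stood at 7.74, 9.59, 5.18 and 5.39. Ifi27l2a stood at 10.10, 12.65, 8.28 and 8.67.

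The peptide differences of the interferon list and of the Ly6 genes can be set side by side. In TRP1high, 15 of 32 interferon-stimulated genes passed 2-fold upward with M9 and 2 downward (5.14% and 4.73% of tested genes), while the 4 Ly6 genes differed by -0.47 to 0.78 (log2). In TRP1low, 2 of 32 were higher with M9 and 8 lower (7.67% and 7.43% of tested genes), while the differences were 2.03 for Ly6a, 1.33 for Ly6c1, -0.17 for Ly6c2 and -0.92 for Ly6e. Rsad2 and Isg15 were the 2 members higher with M9 in both receptors, and Ifit3 was the 1 lower in both, at -1.74 and -3.49 (1.58% and 1.57% of tested genes). For Isg15, a ubiquitin-like modifier, levels with K8 and M9 were 6.84 and 10.57 in TRP1high and 5.83 and 6.98 in TRP1low.

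**Figure D4:**
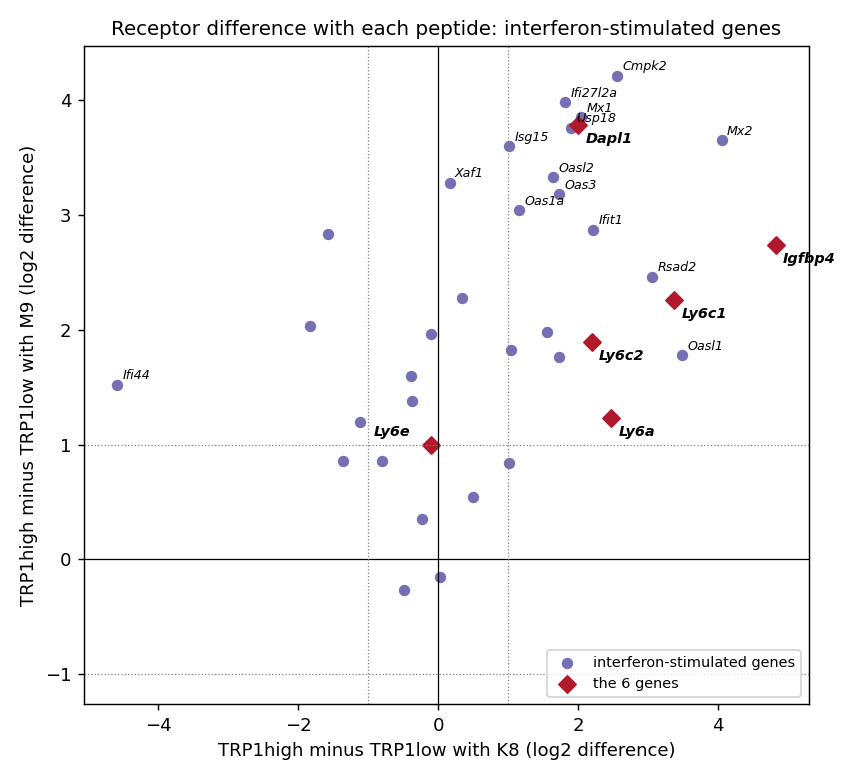
Log2 difference between TRP1high and TRP1low, with K8 (horizontal) and with M9 (vertical). Shown are interferon-stimulated genes with at least 10 normalized counts in some library (purple) and the 6 genes (red diamonds). Dotted lines mark 2-fold. With M9, 24 of the purple genes lie above the upper 2-fold line, and Dapl1 lies among the highest of them while Ly6a and Ly6e lie near that line. Oas2, 1 of the 32 listed genes, stayed under 10 normalized counts and is not shown.

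Naive and memory T cell genes, among which Igfbp4, Dapl1 and Ly6c2 are often listed, went both ways between the receptors. Of 28, 3 passed 2-fold upward and 4 downward in TRP1high relative to TRP1low with K8, and 3 and 2 with M9, with medians of -0.08 and 0.12. The shares of all tested genes were 10.6% upward and 8.35% downward with K8 and 7.37% and 5.58% with M9. Il6ra, the interleukin 6 receptor, was higher with both peptides (1.54 and 2.51), and Ccr9, a gut-homing chemokine receptor, was lower with both (-3.89 and -2.71). Of all tested genes, 3.24% were higher and 2.29% lower with both. Ccr7, a lymph node homing receptor, differed by 0.15 and 0.63, and Tcf7, which encodes TCF1, by -0.90 and -0.26. Compared with K8, M9 gave 6 of 28 at least 2-fold lower and 0 higher in TRP1high (4.73% and 5.14% of tested genes), and 8 lower and 1 higher in TRP1low (7.43% and 7.67%). S1pr1 and Cxcr3 were among the 5 lower in both (1.57% of tested genes), and the 1 higher in TRP1low was Bcl2, an inhibitor of apoptosis (2.11). Igfbp4 and Dapl1 each went 1 way in 1 receptor and the other way in the other.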

How the data were processed

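RNA sequencing of 4 libraries of sorted mouse T cells was used, 1 for each receptor and peptide, grouped by the sample titles. The values are log2 normalized counts, per the file headers. The minimum of exactly 0 and the steps of the low values were read as log2 of a count divided by 1 size factor, plus 1. The submitters' processing notes name Salmon 0.8.2, DESeq2 1.20.0 and the build mm10; annotation and filters are not given in the sources.

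The worth of 1 read was 0.998, 0.990, 1.37 and 1.05 normalized counts in TRP1high/K8, TRP1high/M9, TRP1low/K8 and TRP1low/M9. Between 56.3% and 56.5% of values under 50 were within 0.01 of a whole read, so reads were not recovered as counts and no count test was run. A gene with 3 reads or fewer is at the floor. Comparisons are log2 differences between 2 libraries with no statistical test (the calculation itself was checked on simulated counts), and folds are ratios without the added 1. Genes averaging 1 normalized count or more (16102 of 16338) made up the background. Intervals are exact at 95% on rounded reads (scipy 1.17.1 in Python 3.11.15). Alignments used Biopython 1.88.

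The 6 genes and the lists were chosen with earlier results of these data known. The text names the 6 genes, family genes with at least 10 normalized counts in a library, up to 4 list genes per direction at 2-fold in both pairs, defining markers, and the 3 genes of most like pattern. Bcl2, Ccr7, Tcf7, Them6, Trdc, Xbp1, Irf4, Eomes and Pecam1 were named after their values were seen. Of the marker lists, CD4 T cell (4 measured), gamma delta T or NK cell (5) and erythroid or endothelial markers (6) summed to 46 to 137, 1380 to 3768 and 639 to 1491 normalized counts. Eomes alone held 792 to 2270 of the gamma delta T or NK sums, and Pecam1 635 to 966 of the erythroid or endothelial sums. Both genes are also on the naive and memory T cell list, so these sums do not measure other cells alone. Other scalings, pseudocounts, filters and fold limits were tried.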

Additional observations from a re-analysis of the deposited data

Results flagged for a closer look

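Ly6e, Igfbp4 and Dapl1 had peptide differences of opposite sign in the receptors. The log2 difference between M9 and K8 was 0.17 in TRP1high and -0.92 in TRP1low for Ly6e. For Igfbp4 it was -0.79 and 1.30, and for Dapl1 1.16 and -0.62. Ly6e also differed in sign between the peptides when the receptors were compared, at -0.10 with K8 and 1.0 with M9. Each group held 1 library, and the difference between these differences was not tested.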

How the results depend on the processing

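With another limit on the fold, the number of the 6 genes apart between M9 and K8 moved from 1 to 3 at 1.5-fold and to 0 at 3-fold in TRP1high, and from 3 to 5 and to 1 in TRP1low. Of genes higher in TRP1high, 5 were counted with K8 at 1.5-fold and at 3-fold. With M9, 6 were counted at 1.5-fold and 4 at 3-fold, and Ly6e at its difference of 1.0 was at the edge of the 2-fold limit. Under 2 other scalings of the libraries (median of ratios, equal totals) and pseudocounts of 10 and 0.1, 0 of 96 recomputed differences of the 6 genes changed sign and 93 stayed within their counting interval. The 3 that did not, Ly6a and Ly6e between receptors with M9 (1.27 and 1.04) and Ly6e between peptides in TRP1low (-0.99), came from equal totals. With a pseudocount of 10, Ly6c1 differed by 0.71 between peptides in TRP1low, where it was then under 2-fold. Between receptors it differed by 2.30 with K8 and 1.79 with M9, so its receptor difference then changed with the peptide by less than 2-fold. A filter at a mean of 10 normalized counts put the background of genes higher in TRP1high at 11.6% with K8 and 7.85% with M9. No paired analysis was possible because each group held 1 library, and for the same reason no library could be left out. Depth limits Ly6c1 most, with 4.1 estimated reads in TRP1low/K8.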
